A study of Mus musculus with 89 samples.

Results

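The fecal community was followed in the first 3 d after brain surgery in the same mice, each compared with its own pellet from before surgery. The count table held 91 columns, 89 of which had at least 10000 reads. The columns whose names give the pre-injury collection, 1 d, 2 d or 3 d were taken, which left 51 columns of 13 animals: 13 before injury, 13 at 1 d, 13 at 2 d and 12 at 3 d. Animal 160 had no 3 d column with enough reads, so every 3 d value below rests on the other 12 animals.

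The mice were adult male C57BL/6J mice that received either controlled cortical impact (CCI), in which an impactor strikes the exposed dura to contuse the cortex below, or sham surgery, in which no impact was delivered. The labels give 6 sham and 7 CCI mice. The column names give an animal number and a time but no injury group, so sham and CCI mice were pooled here and an effect of the impact cannot be told apart from that of surgery, anesthesia or time itself. All mice had been flushed with polyethylene glycol and gavaged repeatedly with the same pooled cecal contents before injury. After surgery they were housed with mice of their own injury group, so cage and injury group cannot be told apart either. Bedding was also still mixed within each injury group. Animals of a group were thus not fully independent, whereas the tests below treat each animal as a unit. No unoperated mice were compared here.

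The bacterial 16S rRNA gene is read as a tag of who is present. Each distinct sequence is an amplicon sequence variant, and its reads are given as a percent of all reads of the column. A healthy mouse colon is dominated by obligate anaerobes of the Firmicutes, many of which ferment fiber to short-chain fatty acids, and of the Bacteroidota, which degrade plant and host glycans. Minor members include Bifidobacterium, which ferments sugars to acetate and lactate, Akkermansia, which lives on mucin, and facultative anaerobes such as enterococci and staphylococci, which tolerate oxygen. A share of reads cannot tell fewer cells of a taxon from more cells of the others, and this holds for every percent and fold change given here.

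Depth was similar across the collections. The reads per column ranged from 41077 to 175279 with a median of 78985 before injury, from 10266 to 137745 with a median of 81890 at 1 d, from 31781 to 172963 with a median of 82731 at 2 d, and from 14669 to 160608 with a median of 79629 at 3 d. Of the 4065 variants in the table, 2601 had a read in these 51 columns and 434 had an entry in the taxonomy table. The 434 named variants carried a median of 98.99% of the reads before injury, and their lowest share was 94.38%, in animal 154 at 2 d. No columns were identical, and the smallest Bray-Curtis dissimilarity between any pair of columns was 0.112 (0 means the same community and 1 means nothing shared).

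Some columns stood apart from the rest. The median dissimilarity to all other columns was 0.567 for animal 151 at 2 d, 0.562 for animal 150 at 1 d and 0.531 for animal 153 at 1 d. The last of these was also the shallowest column, with 10266 reads and 81 variants, and 26.8% of its reads were Lactobacillus variant 3. Results were therefore also computed without these 3 columns.

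Before injury the community was led by a few families. Muribaculaceae, the main Bacteroidota of the mouse gut, took 34.8% ± 3.35 (SD, n = 13) of the reads with 21 variants. Lachnospiraceae, fiber-fermenting Clostridia, took 28.2% ± 13.6 with 203 variants, and Erysipelotrichaceae took 10.8% ± 10.1 with 12 variants. Lactobacillaceae (6.16% ± 6.19), Oscillospiraceae (3.50% ± 1.94), Bifidobacteriaceae (3.49% ± 3.20), Bacteroidaceae (3.36% ± 1.63) and Ruminococcaceae (3.03% ± 0.923) followed. The SD was small relative to the mean for Muribaculaceae and about as large as the mean for Erysipelotrichaceae, Lactobacillaceae and Bifidobacteriaceae, so the animals already differed widely in these last 3 families before surgery.

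The dominant variant of a column varied in the same way. Muribaculaceae variant 1 (variants are numbered by their rank in mean percent over these columns) was the largest variant in 20 of the 51 columns, at 7.55% to 12.97% of the reads. Lactobacillus variant 3 led 13 columns, at 9.30% to 29.5%, and Turicibacter variant 4, an Erysipelotrichaceae member, led 12 columns, at 8.53% to 17.8%. Lachnospiraceae_NK4A136_group variant 7 led 3 columns. The sole Akkermansia variant led 2 columns, both of animal 151.

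On average, an animal's columns after surgery lay nearer to its own pre-injury column than to those of other animals. At 1 d the mean Bray-Curtis dissimilarity to the own pre-injury column was 0.287 (lowest 0.199, median 0.2703, highest 0.446), against 0.433 on average to the pre-injury columns of the other animals. At 2 d these means were 0.306 (0.181, 0.291 and 0.497) and 0.419, and at 3 d they were 0.314 (0.188, 0.325 and 0.451) and 0.415. The own column was nearer than the average of the others in 13 of 13 animals at 1 d, 13 of 13 at 2 d and 11 of 12 at 3 d. The differences of -0.145, -0.113 and -0.1003 were past the threshold in a two-sided exact sign-flip permutation test over animals (adjusted p = 0.000366, 0.000366 and 0.00293). The smallest p this test can give is 0.000244 with 13 animals and 0.000488 with 12. The differences of the animals share pre-injury columns and are not independent, so these p-values are approximate.

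The own pre-injury column was the nearest of all pre-injury columns in 10 of 13 animals at 1 d, in 7 of 13 at 2 d and in 6 of 12 at 3 d. Different animals had differed from each other before surgery by a mean of 0.412 (0.159 to 0.5996 over 78 pairs). Most reads belonged to variants already seen in the same animal before surgery: the median share was 96.9% at 1 d, 97.5% at 2 d and 96.5% at 3 d. Conversely, variants that were seen again carried a median of 97.4%, 96.9% and 95.5% of the pre-injury reads. All mice had received the same cecal contents, and these shares were not computed against other animals. They therefore do not show that an animal kept variants of its own.

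**Figure D1:**
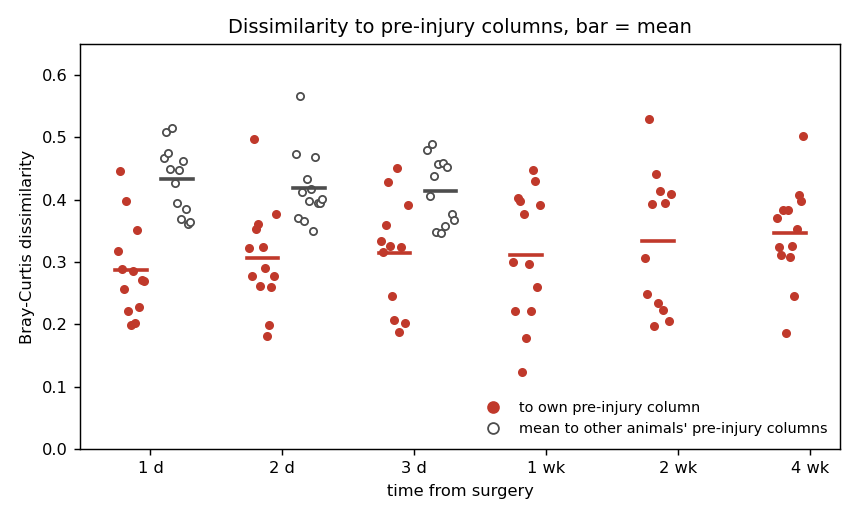
Bray-Curtis dissimilarity (vertical axis, no unit) of each column after surgery to the pre-injury column of the same animal (filled red points) and, for 1 d to 3 d, the mean dissimilarity to the pre-injury columns of the other animals (open points), by time from surgery, with short bars for the means. The red means are 0.287, 0.306 and 0.314 at 1 d, 2 d and 3 d, below the open means of 0.433, 0.419 and 0.415.

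A shift common to all animals was small next to the differences between animals. With collection labels exchanged only within animals, PERMANOVA on Bray-Curtis dissimilarity attributed an R2 of 0.0218 to the step from pre-injury to 1 d (p = 0.306, exact permutation test, upper tail). The R2 was 0.0465 at 2 d (p = 0.0422) and 0.0553 at 3 d (p = 0.0361), and neither passed after adjustment over the 3 collections (adjusted p = 0.0634 for both, exact permutation test). Without the 3 columns that stood apart, R2 was 0.0381, 0.0499 and 0.0553 (adjusted p = 0.0415 for each, exact permutation test). These columns had been picked, among those after surgery, by this same dissimilarity or by depth, so this run is no separate support. None of them was a 3 d column. The 3 d R2 and its unadjusted p were therefore unchanged, and its adjusted p moved only with the p-values of the other collections. Leaving out animal 155 also took 2 d and 3 d past the threshold (adjusted p = 0.0352, exact permutation test).

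By Bray-Curtis dissimilarity, the distance covered in the first days did not differ detectably from that reached later. The mean dissimilarity to the own pre-injury column was 0.301 over 1 d to 3 d and 0.332 over 1 wk to 4 wk, a difference of -0.0314 that was lower early in 10 of 13 animals (p = 0.264, two-sided exact sign-flip permutation test). Without animal 153 the difference was -0.0500 (p = 0.0391, same exact test), and as an Aitchison distance over all 13 animals it was -7.62 (p = 0.00171, same exact test).

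Alpha diversity gave no detectable change. The Shannon index, on columns thinned to 10000 reads, averaged 3.82 ± 0.373 (SD, n = 13) before injury, 3.803 ± 0.375 at 1 d, 3.77 ± 0.304 at 2 d and 3.67 ± 0.281 (n = 12) at 3 d. The number of observed variants averaged 238.6 ± 46.1, 232.3 ± 59.4, 234.5 ± 42.3 and 224.3 ± 34.2. The paired changes in the Shannon index were -0.0204 ± 0.363, -0.0522 ± 0.4999 and -0.132 ± 0.469, with animals on both sides of 0 at each time (adjusted p = 0.841 for each, exact sign-flip permutation test). The changes in observed variants were -6.33 ± 64.4, -4.13 ± 57.6 and -14.7 ± 56.6 (adjusted p = 0.797 for each, exact sign-flip permutation test). The SD of each change was more than 3 times its mean, so shifts of this size could not be resolved with these animals.

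**Figure D2:**
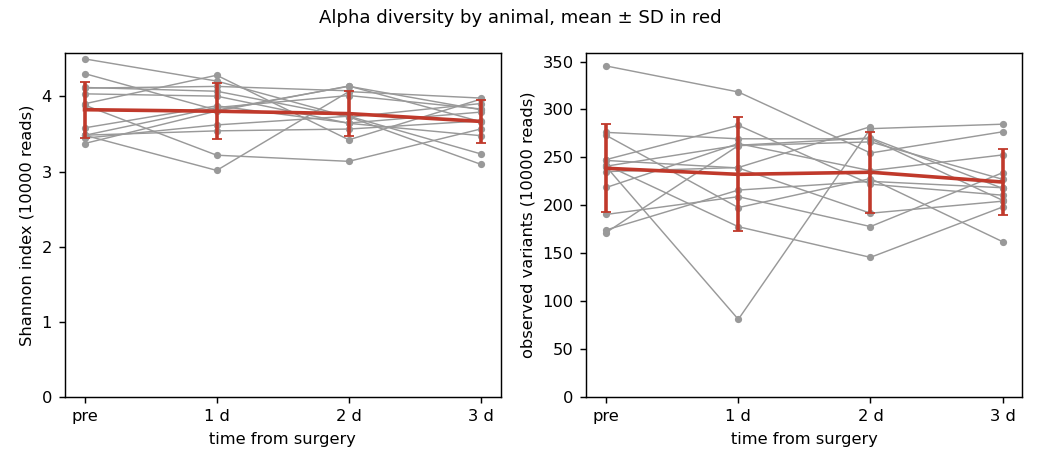
Shannon index (left) and observed variants (right) at 10000 reads per column, by time from surgery, with a grey line for each animal and the mean ± SD in red. The means lie between 3.67 and 3.82 on the left and between 224.3 and 238.6 on the right, and single animals move up or down by more than the means do.

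Among the phyla, the mean shares of Bacteroidota and Firmicutes were nearly equal at 3 d, after a lead of Firmicutes before injury. Bacteroidota averaged 38.2% ± 4.06 (SD, n = 13) before injury, 39.7% ± 10.8 at 1 d, 42.3% ± 6.99 at 2 d and 47.0% ± 6.93 (n = 12) at 3 d, and lay above the own pre-injury value in 10 of 12 animals at 3 d. Firmicutes averaged 55.1% ± 6.77, 53.9% ± 11.5, 53.8% ± 7.74 and 47.1% ± 8.50, and lay below the own pre-injury value in 8 of 12 animals at 3 d. Taken singly, neither change at 3 d passed after adjustment over 15 phylum tests. The change was 8.58 percentage points ± 9.02 for Bacteroidota (p = 0.00684, adjusted p = 0.103, exact sign-flip permutation test) and -7.73 ± 11.2 for Firmicutes (p = 0.0449, adjusted p = 0.225, exact sign-flip permutation test).

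The ratio of these phyla, which does not depend on the other taxa, passed at 3 d after adjustment over its own 3 tests. The phylum changes were adjusted over 15 tests. The unadjusted p of the ratio, 0.0156, was larger than that of Bacteroidota alone, 0.00684 (exact sign-flip permutation tests). The ratio is therefore not stronger evidence of a shift than the Bacteroidota change alone. The log2 ratio of Bacteroidota to Firmicutes averaged -0.53 ± 0.31 before injury (lowest -1.10, median -0.47, highest 0.10) and 0.01 ± 0.47 at 3 d (-0.73, -0.03 and 0.84). The ranges overlapped, and the paired change was 0.52 ± 0.61 (n = 12, p = 0.0156, adjusted p = 0.0469, two-sided exact sign-flip permutation test). By animal it was 1.53 in animal 152, 1.32 in 149, 1.13 in 162, 0.81 in 151, 0.74 in 154, 0.53 in 156, 0.42 in 159 and 0.38 in 158, against -0.01 in 161, -0.10 in 155, -0.19 in 153 and -0.37 in 150. It was thus higher in 8 of 12 animals, and the rises were larger than the drops. Leaving out any 1 of the 8 animals with a higher ratio (149, 151, 152, 154, 156, 158, 159 or 162) lifted the adjusted p to between 0.0762 and 0.0938 (exact sign-flip permutation test). The changes at 1 d (0.05, adjusted p = 0.849) and 2 d (0.18, adjusted p = 0.512) did not pass the same exact test. Without the 3 columns that stood apart the change at 1 d was 0.38 (adjusted p = 0.0308, exact sign-flip permutation test).

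**Figure D3:**
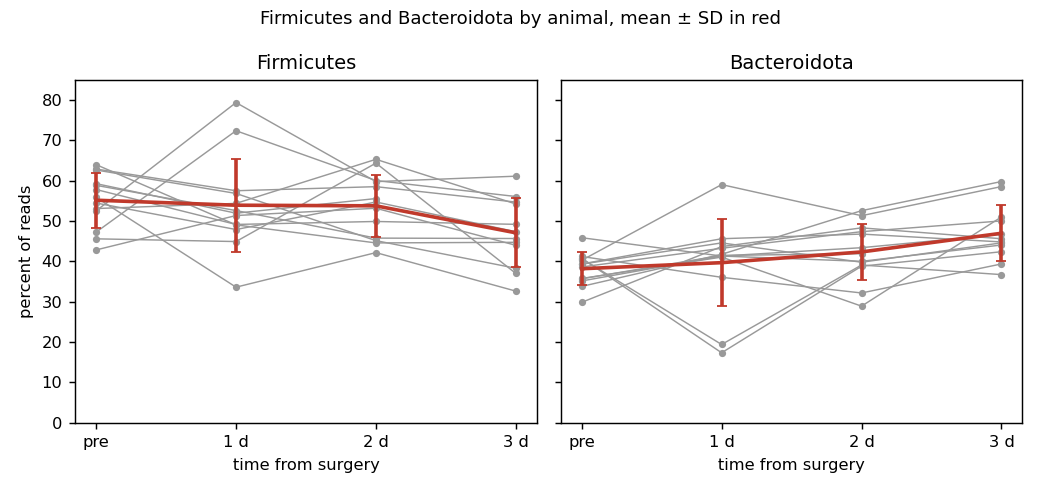
Percent of reads (vertical axis) assigned to Firmicutes (left) and Bacteroidota (right) by time from surgery, with a grey line for each animal and the mean ± SD in red. Mean Firmicutes go from 55.1% before injury to 47.1% at 3 d while mean Bacteroidota go from 38.2% to 47.0%.

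The 3 smaller phyla did not pass at any time. Actinobacteriota averaged 4.24% ± 3.04 before injury, 3.43% ± 2.96 at 1 d, 1.73% ± 1.84 at 2 d and 2.96% ± 2.90 at 3 d, and the 2 d change of -2.51 ± 3.29 percentage points was below 0 in 10 of 13 animals (p = 0.0164, adjusted p = 0.123, exact sign-flip permutation test). Proteobacteria stayed between 0.208% and 0.311% on average. Verrucomicrobiota, here a single Akkermansia variant, averaged 1.29%, 1.44%, 0.813% and 1.43%, while their medians were 0.524%, 0.234%, 0.0908% and 0.121%. Animal 151 alone held 10.7% before injury and 10.02% at 3 d. Without animal 149 the Verrucomicrobiota change was -0.807 percentage points at 2 d and -0.284 at 3 d, and both passed (adjusted p = 0.0293, exact sign-flip permutation test).

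Reads were next summed by family, and each of the 23 families with enough reads was tested with edgeR, with the animal as a block and p-values adjusted over all 23. At 1 d no family was called (0% of those tested, 0 at an unadjusted p under 0.05 and 0 by DESeq2). At 2 d 5 families were called (21.7% of those tested), 3 lower and 2 higher. At 3 d none was called (0%), although 9 had an unadjusted p under 0.05 and DESeq2 called 6, 4 higher and 2 lower. The median log2 fold change over all families was -0.10 at 1 d, -0.17 at 2 d and 0.03 at 3 d. The 3 comparisons share the pre-injury columns.

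Bifidobacteriaceae fell the most of the families called at 2 d. The family held 1 variant, Bifidobacterium variant 12, at 0.00372% to 9.26% of the reads before injury (median 3.61%), 0% to 9.44% at 1 d (median 2.24%), 0% to 4.36% at 2 d (median 0.0883%) and 0.00359% to 6.20% at 3 d (median 0.0513%). The ranges overlapped, but 10 of 13 animals lay below their own pre-injury value at 2 d. The log2 fold change at 2 d was -3.22 ± 0.95 (SE, edgeR adjusted p = 0.0123). At the level of single variants the same Bifidobacterium variant 12 did not pass (edgeR adjusted p = 0.155 over 415 variants). In animal 153 the share was 8.71% before injury, 9.44% at 1 d, 0.0883% at 2 d and 0.0433% at 3 d. In animal 162 it was 3.61%, 4.63%, 4.36% and 6.20%, so the fall was not seen in every animal that carried the family. The fold change was -1.53 ± 0.85 at 1 d and -2.34 ± 1.00 at 3 d, neither past the threshold (edgeR adjusted p = 0.531 and 0.105).

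Erysipelotrichaceae, a Firmicutes family that includes Turicibacter and Dubosiella, also fell at 2 d. Its share ranged from 0.237% to 26.5% before injury (median 7.66%), from 0.132% to 23.5% at 1 d (median 5.98%), from 0.0903% to 18.8% at 2 d (median 2.91%) and from 0.126% to 19.1% at 3 d (median 6.63%). The ranges overlapped, and animal 158 was highest at all 4 collections. The log2 fold change at 2 d was -1.57 ± 0.52 (edgeR adjusted p = 0.0206), and 10 of 13 animals lay below their own pre-injury value. In animal 151 the share went from 18.7% to 5.98%, 0.358% and 0.284%, whereas in animal 150 it was 13.7% before injury and 15.4% at 2 d. At 3 d the fold change was -1.29 ± 0.56 (edgeR adjusted p = 0.105). Leaving out animal 149, 151, 153 or 160 lifted the 2 d adjusted p to between 0.0509 and 0.0702 (edgeR).

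No single variant of the family passed over all variants by edgeR with the settings used for the families. Of the 12 Erysipelotrichaceae variants, 12 had a negative log2 fold change at 1 d, 11 at 2 d and 11 at 3 d, beside 234, 231 and 257 of all 415 variants tested. The medians were -0.92, -2.49 and -1.49, beside -0.16, -0.18 and -0.34 over all 415. These variants come from the same animals and are not independent of each other. Turicibacter variant 4, the most abundant, had a median of 6.47% before injury and 1.26% at 2 d (log2 fold change -1.53 ± 0.58, unadjusted p = 0.0112, edgeR adjusted p = 0.333 over all variants). Dubosiella variant 17 ranged from 0.00596% to 7.11% before injury and from 0% to 1.96% at 2 d (-2.46 ± 0.84, edgeR adjusted p = 0.213).

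Akkermansiaceae, the family of the mucin-degrading Akkermansia, fell at 2 d as well. Its share was 0.0104% to 10.7% before injury (median 0.524%), 0% to 10.2% at 1 d (median 0.234%), 0.00493% to 4.61% at 2 d (median 0.0908%) and 0.00249% to 10.02% at 3 d (median 0.121%). It was below the own pre-injury value in 11 of 13 animals at 2 d, with a log2 fold change of -1.91 ± 0.63 (edgeR adjusted p = 0.0206). Animal 149 went the other way, from 1.14% before injury to 5.53%, 4.61% and 5.34%, and animal 156 was also higher at 2 d, at 0.171% after 0.0760%. In animal 154 the share went from 0.644% to 0.0559%, 0.0145% and 0.00249%. Leaving out animal 153, 154, 159, 160 or 161 lifted the 2 d adjusted p to between 0.0532 and 0.0709 (edgeR). At the level of single variants the same Akkermansia variant 15 did not pass (edgeR adjusted p = 0.213 over 415 variants).

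Staphylococcaceae and Enterococcaceae, whose members tolerate oxygen, rose at 2 d from very low shares. Staphylococcaceae had reads in 3 of 13 columns before injury, 5 of 13 at 1 d, 9 of 13 at 2 d and 7 of 12 at 3 d, with at most 10, 41, 81 and 12 reads in a column. Enterococcaceae had reads in 2 of 13, 6 of 13, 9 of 13 and 5 of 12 columns, with at most 14, 18, 29 and 50 reads. Even at 2 d the median share was 0.0113% for Staphylococcaceae and 0.00996% for Enterococcaceae, and the highest were 0.0822% in animal 161 and 0.0286% in animal 162. By counting error alone, a column with no read of these families allowed a share of up to 0.00730% before injury, below both 2 d medians, but of up to 0.0292% in the shallowest column at 1 d, above them.

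The log2 fold change at 2 d was 3.71 ± 1.03 for Staphylococcaceae and 3.62 ± 1.03 for Enterococcaceae (edgeR adjusted p = 0.0123 for both). Staphylococcaceae were higher than before injury in 9 of 13 animals and lower in 2, and Enterococcaceae were higher in 9 and lower in none. At 1 d the fold changes were 1.79 ± 1.01 and 1.92 ± 1.05 (edgeR adjusted p = 0.531 for both), and at 3 d 1.76 ± 0.99 (edgeR adjusted p = 0.163) and 2.52 ± 1.09 (edgeR adjusted p = 0.105). Neither family had enough reads to enter the stricter count filter. Lactobacillaceae, the abundant family among the oxygen-tolerant taxa listed, had medians of 5.53%, 2.82%, 10.8% and 4.29% and did not pass at 2 d (0.83 ± 0.59, edgeR adjusted p = 0.427). Animal by animal, all 3 falling families were lower at 2 d in 7 of 13 animals, both rising families were higher in 8, and 4 animals showed all 5 changes.

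**Figure D4:**
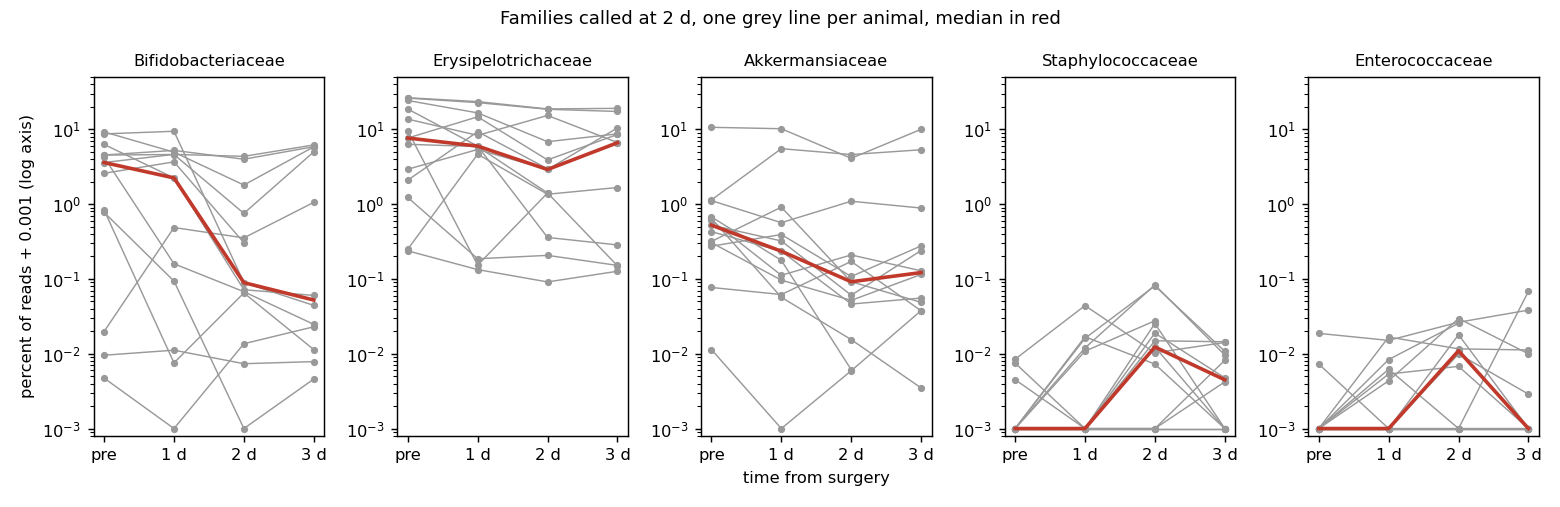
Percent of reads plus 0.001 (vertical log axis) of the 5 families called at 2 d, by time from surgery, with a grey line for each animal and the median in red. The red line of Bifidobacteriaceae drops from 3.61% before injury to 0.0883% at 2 d, while Staphylococcaceae and Enterococcaceae leave 0 to reach 0.0113% and 0.00996% at 2 d.

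The 5 calls depended on the test. An exact sign-flip permutation test over animals on log2(percent + 0.01) called 0 families at 2 d, with 6 at an unadjusted p under 0.05. Its adjusted p was 0.0898 for Enterococcaceae, 0.112 for Akkermansiaceae and Staphylococcaceae, 0.125 for Bifidobacteriaceae and 0.171 for Erysipelotrichaceae. With all timepoints in the fit, edgeR called 2 families, both higher, and all 3 falling families lost their call (edgeR adjusted p = 0.139 for Akkermansiaceae and Bifidobacteriaceae and 0.15003 for Erysipelotrichaceae). Without the animal as a block, edgeR called 1 family, Staphylococcaceae, and the Akkermansiaceae log2 fold change was -0.67 in place of -1.91. DESeq2 called 5 families at 2 d, 2 higher and 3 lower, and edgeR called 6 without the 3 columns that stood apart and 3 when animal 153 or animal 160 was left out.

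No step between consecutive days passed. Of the 23 families, 0 were called at 2 d against 1 d (0%, edgeR, 1 at an unadjusted p under 0.05), at 3 d against 2 d (0%, edgeR, 2 unadjusted) and at 3 d against 1 d (0%, edgeR, 4 unadjusted, with 2 called by DESeq2, both higher). The families called at 2 d against pre-injury are therefore not shown to differ between 2 d and the days on either side: their edgeR adjusted p was 0.278 to 0.302 for 2 d against 1 d and 0.376 to 0.670 for 3 d against 2 d. Between 1 d and 3 d the smallest p belonged to Monoglobaceae, a small family of pectin-degrading Clostridia (1.16 ± 0.36, edgeR adjusted p = 0.0653). Ruminococcaceae stood at -0.63 ± 0.25 and Muribaculaceae at 0.29 ± 0.12 (edgeR adjusted p = 0.163 for both).

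The families with the smallest p at 3 d were partly others. Ruminococcaceae, which include fiber-degrading Clostridia, had a median of 2.85% before injury and 1.76% at 3 d (log2 fold change -0.72 ± 0.25, unadjusted p = 0.00538). UCG-010 had medians of 0.0458% and 0.0821% (1.00 ± 0.39, unadjusted p = 0.0131), and Monoglobaceae had medians of 0.278% and 0.5001% with 10 of 12 animals higher (0.85 ± 0.36, unadjusted p = 0.0238). The edgeR adjusted p was 0.105 for each of them, as for Bifidobacteriaceae and Erysipelotrichaceae. Without the 3 columns that stood apart edgeR called 3 families at 3 d, 2 higher and 1 lower, and without animal 150 it also called 3.

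Of the 8 most abundant families, Bifidobacteriaceae and Erysipelotrichaceae were called at 2 d (above), and the other 6 were called at no time against pre-injury by the same edgeR test with all columns. Muribaculaceae averaged 34.8%, 35.1%, 38.4% and 42.1% and were higher than before injury in 10 of 12 animals at 3 d (log2 fold change 0.26 ± 0.12, edgeR adjusted p = 0.109). Bacteroidaceae, here 1 Bacteroides variant, averaged 3.36%, 4.54%, 3.94% and 4.86% and were also higher in 10 of 12 animals at 3 d (0.40 ± 0.21, edgeR adjusted p = 0.139). Lachnospiraceae averaged 28.2%, 26.6%, 28.4% and 23.3% (-0.18 ± 0.22 at 3 d, edgeR adjusted p = 0.552), and Oscillospiraceae 3.50%, 3.78%, 3.69% and 2.72% (-0.35 ± 0.29 at 3 d, edgeR adjusted p = 0.361). The larger mean share of Bacteroidota at 3 d thus lay mostly in Muribaculaceae. At 3 d 11 of 16 tested variants of that family had a positive log2 fold change, beside 158 of all 415 variants. The count was already 10 of 16 at 1 d and at 2 d.

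**Figure D5:**
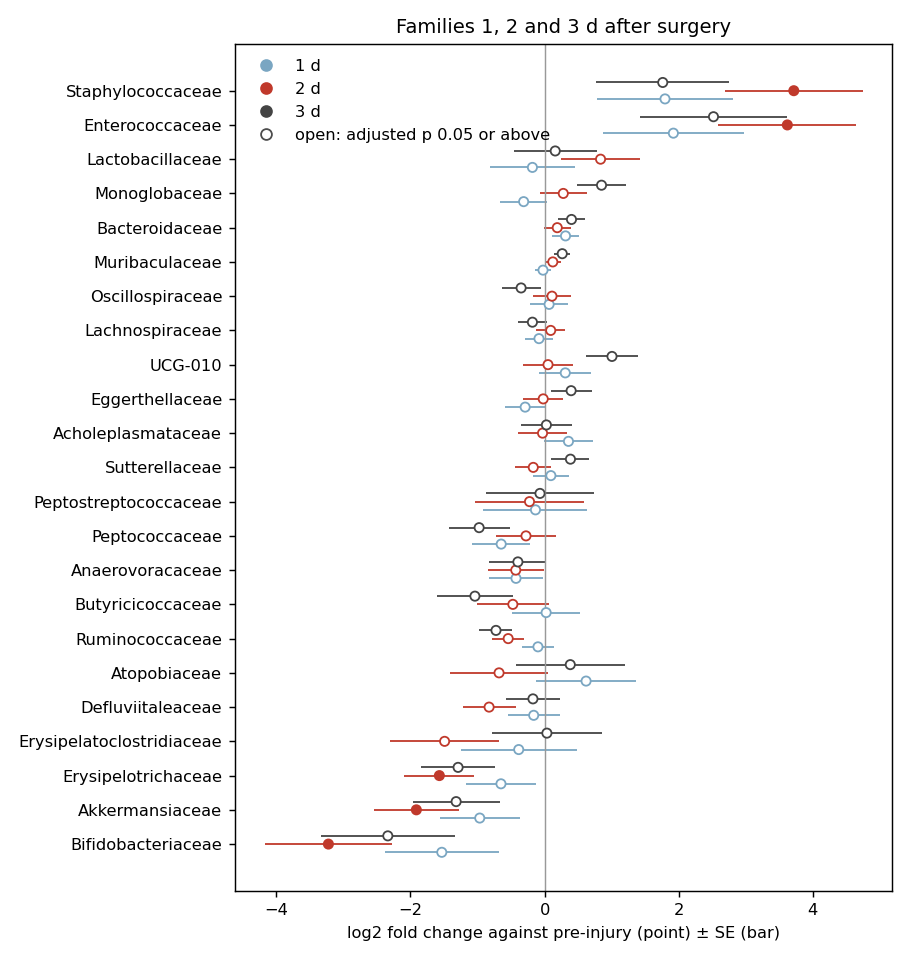
Log2 fold change against pre-injury with its SE (horizontal axis) of the 23 families tested, with points for 1 d, 2 d and 3 d, filled where the edgeR adjusted p was under 0.05 and open otherwise. The filled points are the 5 families called at 2 d, from -3.22 for Bifidobacteriaceae to 3.71 for Staphylococcaceae.

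At the level of genus, added after the families had been seen, 52 genera were tested. None was called at 1 d (0%, edgeR, 2 at an unadjusted p under 0.05 and 1 called by DESeq2), 5 at 2 d (9.62%, 9 called by DESeq2) and none at 3 d (0%, edgeR, 13 unadjusted and 1 called by DESeq2). The count at 2 d was 0 with the stricter count filter, 2 with no animal block and 2 with all timepoints in the fit. Without the 3 columns that stood apart, 1 genus was called at 3 d, and Akkermansia was not called at 2 d (edgeR adjusted p = 0.0640). At 2 d Bifidobacterium (-3.22), Akkermansia (-1.91), Staphylococcus (3.82) and Enterococcus (3.70) carried the calls of their families. The fifth was Erysipelatoclostridium, with reads in 7 of 13 columns before injury and 1 of 13 at 2 d and at most 0.169% of the reads (-4.61 ± 1.23, edgeR adjusted p = 0.0219, adjusted p = 0.130 by DESeq2). Each of the 5 genus calls was lost when 1 of several animals was left out, and a sign-flip permutation test over animals called none (8 unadjusted).

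The genera were also read by lists of known roles, whose counts of calls at 2 d stand beside 5 of 52 genera (9.62%) and 5 of 23 families (21.7%) called in all. Of 3 mucin users (Akkermansia, Bacteroides and Muribaculaceae), 1, Akkermansia, was lower at 2 d. The Akkermansia call was lost with the stricter count filter, with no animal block and with all timepoints in the fit. It was also lost without the 3 columns that stood apart, in the sign-flip permutation test and on leaving out any 1 of 9 animals. The median log2 fold changes of the mucin users were -0.02, 0.12 and 0.26 at 1 d, 2 d and 3 d. Of 7 butyrate producers with reads, none was called at any time by edgeR, with medians of -0.16, 0.17 and -0.20. Of the 7, 2 had a positive log2 fold change at 1 d, 5 at 2 d and 2 at 3 d. Among these Roseburia, a motile butyrate producer, had a median of 1.43% before injury and 0.793% at 3 d (-0.65 ± 0.27, edgeR adjusted p = 0.189), and the Lachnospiraceae NK4A136 group averaged 9.71%, 9.22%, 10.3% and 8.21%. Butyricicoccus, with reads in 15 of the 51 columns, stood at 3.50 ± 1.49, 3.10 ± 1.41 and 1.66 ± 1.38 at 1 d, 2 d and 3 d (edgeR adjusted p = 0.663, 0.173 and 0.429). Of 4 Erysipelotrichales genera, 1, Erysipelatoclostridium, was lower at 2 d, and all 4 had a negative log2 fold change at each time, with medians of -0.83, -1.96 and -1.24 beside -0.15, -0.15 and -0.26 over all genera. Dubosiella (-2.32 ± 0.81, edgeR adjusted p = 0.0576) and Turicibacter (-1.57 ± 0.61, edgeR adjusted p = 0.0921) did not pass at 2 d.

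Of 3 lactic acid bacteria, Bifidobacterium was lower and Enterococcus higher at 2 d, and Lactobacillus was not called, beside 9.62% of all genera called. Of 3 oxygen-tolerant families, 2 were higher at 2 d, beside 21.7% of all families called. Both, Staphylococcaceae and Enterococcaceae, had at most 81 reads in a column at 2 d and were not called by the sign-flip permutation test. Streptococcus, Enterobacteriaceae, Faecalibaculum, Eubacterium, Candidatus Arthromitus, Alistipes, Rikenellaceae and Desulfovibrionaceae had no entry in the taxonomy table used here. Sequences of other than bacterial origin were rare: 1 mitochondrial variant had 52 reads in 10 of the 51 columns, and 3 eukaryotic variants had 203 reads in 18 columns, at most 0.0873% of a column.

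Single variants gave no call by edgeR with the settings used for the families. Among 415 variants, 0 passed at 1 d (0%, 19 at an unadjusted p under 0.05, 0 by DESeq2), 0 at 2 d (0%, 37 unadjusted, 11 by DESeq2), 0 at 3 d (0%, 40 unadjusted, 8 by DESeq2) and 0 at 3 d against 1 d (0%, 25 unadjusted, 1 by DESeq2). DESeq2's calls were 3 higher and 8 lower at 2 d, where it gave an adjusted p to 278 of the 415 variants, and 2 higher and 6 lower at 3 d. Other edgeR settings also gave calls: 2 at 2 d with TMM factors, 9 at 3 d against 1 d with no animal block, and with no low-count filter 2 at 1 d, 6 at 2 d, 4 at 3 d and 2 at 3 d against 1 d. Nearest to the threshold at 2 d were Monoglobus variant 83 (-4.93 ± 1.22) and Turicibacter variant 78 (-5.60 ± 1.36), both at an edgeR adjusted p of 0.0534. Turicibacter variant 78 had reads in 9 of 13 columns before injury and in 4 of 13 at 2 d.

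A pair of Monoglobus variants, chosen for their small p, had log2 fold changes of opposite sign at 2 d. Neither passed at any time by edgeR with the settings used for the families. Monoglobus variant 83 had reads in 10 of 13 columns before injury, 5 of 13 at 2 d and 9 of 12 at 3 d, with medians of 0.195%, 0% and 0.0325%. Its mean was 0.196% before injury and 0.224% at 3 d (log2 fold change at 3 d -1.78 ± 1.09, edgeR adjusted p = 0.460). Monoglobus variant 49 had a median of 0.0998% before injury, 0.118% at 1 d, 0.230% at 2 d and 0.315% at 3 d, and was higher than before injury in 11 of 13 animals at 2 d and 10 of 12 at 3 d (log2 fold change 1.23 ± 0.46 at 2 d, edgeR adjusted p = 0.323, and 1.63 ± 0.48 at 3 d, edgeR adjusted p = 0.198).

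Muribaculaceae variant 8 was the variant among the 12 most abundant that was higher than before injury in the most animals. Its share ranged from 1.70% to 3.41% before injury (median 2.53%), 1.82% to 4.14% at 1 d (median 3.19%), 1.55% to 5.00% at 2 d (median 3.57%) and 2.80% to 5.43% at 3 d (median 3.34%). It was higher in 10 of 13, 11 of 13 and 12 of 12 animals, yet the log2 fold change at 3 d of 0.50 ± 0.18 did not pass over all variants (unadjusted p = 0.00703, edgeR adjusted p = 0.365). Roseburia variant 114 had a median of 0.143% before injury and 0.0113% at 3 d and was lower in 10 of 12 animals (-2.92 ± 0.88, edgeR adjusted p = 0.198).

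The first days were last set against the later collections in the same animals, with all columns in 1 fit. Between the mean of 1 d to 3 d and the mean of 1 wk to 4 wk, 7 of 23 families were called (30.4%). Staphylococcaceae were lower early (log2 fold change -2.94 ± 0.68, edgeR adjusted p = 0.00116), and their highest mean, 0.861%, came at 2 wk, with up to 6950 reads in a column. Bifidobacteriaceae (-1.64 ± 0.62), Erysipelotrichaceae (-1.01 ± 0.37) and Sutterellaceae (-0.53 ± 0.17) were also lower early, with edgeR adjusted p of 0.0429, 0.0429 and 0.0287. Oscillospiraceae (0.51 ± 0.18), Lachnospiraceae (0.31 ± 0.12) and Bacteroidaceae (0.29 ± 0.11) were higher early, with edgeR adjusted p of 0.0410, 0.0478 and 0.0478. These calls depended on the settings: edgeR called 1 family, lower early, with no animal block, 3 (1 higher, 2 lower) without the 3 columns that stood apart, and 5 (1 higher, 4 lower) with TMM factors or with no low-count filter. The count dropped to 1 without animal 152, 155 or 160, to 2 without animal 150, 153 or 162 and to 4 without animal 149. Bifidobacteriaceae averaged 0.913% at 2 d and 4.16% at 1 wk, and Erysipelotrichaceae 5.71% and 10.5%.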

How the data were processed

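Fecal DNA of mice was sequenced over the V3-V4 region of the 16S rRNA gene on a MiSeq. Per the labels and methods, the authors trimmed and joined reads, inferred variants with DADA2, removed chimeras, excluded samples under 10000 reads and named variants with SILVA. The deposited table held raw read counts per variant and column, with no normalization. Columns were assigned to a collection and an animal by name. Of the per-sample columns, 2 could not be used (137 and 215 reads). The study's own comparison of injury groups needs a group per column and was not made.

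Counts were tested with edgeR 4.0.16 (R 4.3.3) quasi-likelihood fits, with the animal as a block and the column total as library size, over features with at least 10 reads in at least 5 columns. The samples are paired because each animal was collected repeatedly. Benjamini-Hochberg adjustment and a threshold of 0.05 were used throughout; SE is the fold change over the square root of F. Reads were tested by family, by genus (added later) and by variant. DESeq2 1.42.0 was an alternative. Other measures were compared with exact sign-flip permutation tests over animals, alpha diversity after thinning to 10000 reads (mean of 20 draws), and Bray-Curtis PERMANOVA with exchange within animals. The count tests and permutation tests were tested on simulated data, and no value from those runs is used here. Named were the 5 phyla, the 8 largest families, the listed taxa, and at each time the 10 largest changes past the threshold or, with fewer than 3, the 5 smallest p; some other variants were picked with their values in view. The members and lists were chosen with earlier results of these data known. Intervals and limits cover counting error only.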

Additional observations from a re-analysis of the deposited data

How the results depend on the processing

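Of the comparisons reported, the nearness of each animal to its own pre-injury column kept its direction and its side of the threshold under every alternative run, with leave-one-out ranges of -0.159 to -0.137 at 1 d, -0.121 to -0.0932 at 2 d and -0.110 to -0.0887 at 3 d. The 5 family calls at 2 d became 2 with all timepoints in the fit, 1 with no replicate block, 3 with a stricter low-count filter that removed the rare families, and 0 in a sign-flip permutation test, and 3 to 6 on leaving out an animal. Family calls at 3 d became 6 with DESeq2 and 3 without the 3 columns that stood apart (0 to 3 on leaving out an animal), and at 3 d against 1 d became 2 with DESeq2 (0 to 1, with 1 without animal 153, 156 or 159). Calls of early against later families became 1 with no replicate block and 3 without the 3 columns (1 to 8). Variant calls with no low-count filter were 2 at 1 d, 6 at 2 d, 4 at 3 d and 2 at 3 d against 1 d. With DESeq2 they were 11 at 2 d, 8 at 3 d and 1 at 3 d against 1 d, with TMM factors 2 at 2 d, and with no replicate block 9 at 3 d against 1 d. Leaving out an animal gave 0 to 3 at 2 d (above 0 without animal 152, 156, 160 or 162) and 0 to 1 at 3 d (1 without animal 154). The cause of these changes was not tested.

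With no replicate block the 3 d rise of Bacteroidota of 8.58 percentage points passed (adjusted p = 0.00915, permutation test). Without the 3 columns R2 was 0.0381, 0.0499 and 0.0553, the 1 d ratio change was 0.38, the 2 d change of Verrucomicrobiota was 0.0290 and the 1 d change of observed variants 3.75. Small changes that had not passed also turned sign. As medians over animals, 1 d changes were 0.0230 for Shannon index, 4.25 for observed variants, 0.0833 for Actinobacteriota and -0.202 for Verrucomicrobiota, with -0.0250 for Proteobacteria at 2 d and -0.249 for Verrucomicrobiota at 3 d. On a log2 scale they were -0.00236 for Bacteroidota and -0.67 for Verrucomicrobiota at 1 d, -0.0709 for Proteobacteria at 2 d and -1.12 for Verrucomicrobiota at 3 d. As an Aitchison distance, the early minus later difference was -7.62 and passed (p = 0.00171, exact permutation test).

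Leaving out 1 animal moved values, among others, as follows: Shannon index -0.0582 to 0.0335 at 1 d, -0.120 to 0.00808 at 2 d and -0.189 to -0.0513 at 3 d; observed variants -14.4 to 6.43, -12.4 to 3.56 and -21.0 to -5.90; Firmicutes -3.58 to 0.515 and -3.07 to 0.109; Proteobacteria -0.00962 to 0.0213 at 2 d; Verrucomicrobiota -0.209 to 0.206, -0.807 to 0.0290 and -0.284 to 0.157 at 1, 2 and 3 d; log2 ratio -0.0536 to 0.21 at 1 d, 0.09 to 0.26 at 2 d and 0.42 to 0.60 at 3 d; R2 0.0413 to 0.0581 at 2 d and 0.0429 to 0.0655 at 3 d; early minus later dissimilarity -0.0500 to -0.0194. Columns under 10000 reads were not run, since they could not be used.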
